A study of Mus musculus with 4 samples.

Results

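Integrins are the cell surface receptors that hold cells to extracellular matrix, and the 10 genes described here are Itga6, which encodes CD49f, the alpha 6 subunit used to sort the cells, together with Itga1, Itga2, Itga3, Itga5, Itga9, Itgav, Itgb4, Itgb6 and Itgb8. They were taken by gene symbol from the 41128 gene rows of a count table, and all 10 were found. Each had at least 62 counts in every library, so none was lost to the filter on low counts. The libraries came from livers of C57BL/6 mice with experimental alcoholic hepatitis, in which a diet high in cholesterol and fat was eaten freely for 40% of calories and the remaining 60% came from an alcohol liquid diet infused into the stomach, with a binge each week. All 4 populations carried this treatment and none was from untreated animals. Flow cytometry gave Prom1+CD49f+CD45- cells, Prom1-CD49f+CD45- cells and cells gated as Prom1+CD49f+CD45+, with antibodies to prominin 1 (CD133), CD49f and the leukocyte antigen CD45. The presorted CD45- cells were the liver cells left after hepatocytes had been spun out and CD45+ cells pulled away with magnetic beads. Each population had 1 library, made from the pooled RNA of 2 mice, so no difference has a replicate check and no test was possible.

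An integrin is a heterodimer of 1 alpha and 1 beta subunit, and the pair decides the ligand. Alpha 6 with beta 4 (Itgb4) binds laminin in basement membranes and anchors keratin filaments through hemidesmosomes, while alpha 6 and alpha 3 (Itga3) with beta 1 (Itgb1) are laminin receptors linked to actin. Alpha 1 and alpha 2 (Itga1, Itga2) with beta 1 bind collagens, and alpha 5 (Itga5) with beta 1 binds fibronectin. Alpha v (Itgav) pairs with several beta subunits, and its dimers with beta 6 and beta 8 (Itgb6, Itgb8) bind latent TGF-beta and release it in active form. Alpha 9 (Itga9) with beta 1 binds tenascin-C, osteopontin and VCAM1. In the liver, bile duct epithelium rests on a laminin-rich basement membrane, and beta 6 is known for its appearance on duct epithelium during fibrosis.

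Depth, as the sum of counts over genes, was 30239484 for Prom1+CD49f+CD45-, 14670239 for Prom1-CD49f+CD45-, 23069940 for the library labelled Prom1+CD49f+CD45+ and 52293939 for presorted CD45- cells. The sorted genes themselves were checked against the labels. Prom1 stood at 355 in Prom1+CD49f+CD45- cells, 31.1 in Prom1-CD49f+CD45- cells, 11.4 for the library labelled Prom1+CD49f+CD45+ and 67.1 for presorted cells, in TMM-scaled CPM, which adjusts each count for the depth and make-up of its library. Ptprc, which encodes CD45, stood at 6.33 in Prom1+CD49f+CD45- cells, 3.60 in Prom1-CD49f+CD45- cells, 14.5 for the library labelled Prom1+CD49f+CD45+ and 21.0 for presorted cells. Prom1 and Ptprc were thus lower in the library labelled Prom1+CD49f+CD45+ than in presorted cells, although its label gives both proteins as positive, and it is called by its label throughout. Of 10 cholangiocyte markers all were detected in every library, with summed levels of 24072 in Prom1+CD49f+CD45- cells, 9172 in Prom1-CD49f+CD45- cells, 383 for the library labelled Prom1+CD49f+CD45+ and 3843 for presorted cells, in TMM-scaled CPM. The 10 endothelial markers, also detected everywhere, summed to 104 in Prom1+CD49f+CD45- cells, 4761 in Prom1-CD49f+CD45- cells, 12988 for the library labelled Prom1+CD49f+CD45+ and 9691 for presorted cells. The 10 hepatocyte markers, likewise all detected, summed to 6591 in Prom1+CD49f+CD45- cells, 5057 in Prom1-CD49f+CD45- cells, 476 for the library labelled Prom1+CD49f+CD45+ and 21300.3 for presorted cells. Gene by gene, 6 of them were lower and 4 higher in Prom1+CD49f+CD45- than in Prom1-CD49f+CD45- cells, and Alb and Ahsg carried the sum. The 7 mesothelial markers summed to 2654 in Prom1+CD49f+CD45- cells, 1333 in Prom1-CD49f+CD45- cells, 51.2 for the library labelled Prom1+CD49f+CD45+ and 612 for presorted cells, with Wt1 at 0 counts in the library labelled Prom1+CD49f+CD45+. Krt8, a keratin that duct cells and hepatocytes also make, and Gpm6a made up most of these sums. Without both, which were set aside after their values were seen, the other 5 summed to 3.85 in Prom1+CD49f+CD45- cells, 332 in Prom1-CD49f+CD45- cells, 2.94 for the library labelled Prom1+CD49f+CD45+ and 83.8 for presorted cells. Stellate and fibroblast markers summed to 288 in Prom1+CD49f+CD45- cells, 707 in Prom1-CD49f+CD45- cells, 76.3 for the library labelled Prom1+CD49f+CD45+ and 542 for presorted cells, with Hand2 at 0 in Prom1+CD49f+CD45- cells. Dcn, at 530, made up most of the sum of Prom1-CD49f+CD45- cells, and Rgs5, at 251, most of that of Prom1+CD49f+CD45- cells. With presorted cells as the base, 7 of these 10 markers were lower and 3 higher for Prom1-CD49f+CD45- cells. Leukocyte markers summed to 16.6 in Prom1+CD49f+CD45- cells, 23.2 in Prom1-CD49f+CD45- cells, 107 for the library labelled Prom1+CD49f+CD45+ and 249 for presorted cells, with Cd3e at 0 in both CD45- sorted populations. The sums for cholangiocytes, endothelium, hepatocytes and mesothelium differed between the libraries by more than any of the 10 integrins did, and their part in the results below was not tested. In bulk RNA, fewer cells of a type and less RNA per cell cannot be told apart.

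Of the 10 integrin genes, 6 were highest in Prom1+CD49f+CD45- cells (Itga2, Itga3, Itgav, Itgb4, Itgb6 and Itgb8), and the other 4 (Itga6, Itga1, Itga5 and Itga9) had their highest level with the library labelled Prom1+CD49f+CD45+. Levels below are TMM-scaled CPM with exact 95% Poisson intervals, which like all intervals here cover counting error only. Positions are those of mm10.

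Itga6 (ENSMUSG00000027111.10, chromosome 2, 71745616 to 71858416, plus strand) stood at 72.9 in Prom1+CD49f+CD45- cells, 50.5 in Prom1-CD49f+CD45- cells, 127 for the library labelled Prom1+CD49f+CD45+ and 110.4 for presorted cells. Its intervals were 70.0 to 75.8 in Prom1+CD49f+CD45- cells, 46.9 to 54.3 in Prom1-CD49f+CD45- cells, 122 to 131 for the library labelled Prom1+CD49f+CD45+ and 107 to 114 for presorted cells, with no overlap. The CD49f transcript was therefore lower in both CD45- sorted populations than in the unsorted input, and its whole range was 2.51-fold, the narrowest of the 10 genes. Itgb4 (ENSMUSG00000020758.10, chromosome 11, 115974709 to 116008412, plus strand), whose product pairs with alpha 6 alone, stood at 65.3 in Prom1+CD49f+CD45- cells, 15.1 in Prom1-CD49f+CD45- cells, 3.91 for the library labelled Prom1+CD49f+CD45+ and 12.6 for presorted cells. Prom1+CD49f+CD45- cells were far above the rest, and the intervals of Prom1-CD49f+CD45- cells (13.2 to 17.3) and presorted cells (11.6 to 13.7) overlapped. Its range was 16.7-fold. Itga3 (ENSMUSG00000001507.11, chromosome 11, 95044474 to 95076801, minus strand) had the widest range, 24.3-fold, with 165 in Prom1+CD49f+CD45- cells, 25.8 in Prom1-CD49f+CD45- cells, 6.77 for the library labelled Prom1+CD49f+CD45+ and 36.0 for presorted cells. The laminin-binding subunits thus split, with Itga3 and Itgb4 ordered alike at the top and bottom and Itga6 ordered otherwise.

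The collagen receptor genes ran in opposite directions. Itga1 (ENSMUSG00000042284.9, chromosome 13, 114953096 to 115101964, minus strand) was at 22.8 in Prom1+CD49f+CD45- cells, 82.1 in Prom1-CD49f+CD45- cells, 282 for the library labelled Prom1+CD49f+CD45+ and 230.0 for presorted cells. Its neighbour Itga2 (ENSMUSG00000015533.8, chromosome 13, 114833081 to 114932100, minus strand) was at 8.78 in Prom1+CD49f+CD45- cells, 6.22 in Prom1-CD49f+CD45- cells, 2.50 for the library labelled Prom1+CD49f+CD45+ and 4.05 for presorted cells. Itga2 was the lowest of the members by level per kilobase for the library labelled Prom1+CD49f+CD45+ as well as for presorted cells. As a background level, the 95th percentile of 1506 olfactory, vomeronasal and taste receptor genes, which liver cells are not known to use, was 0.817 in Prom1+CD49f+CD45- cells, 0.353 in Prom1-CD49f+CD45- cells, 1.08 for the library labelled Prom1+CD49f+CD45+ and 0.0450 for presorted cells. The lowest member value, 2.50 in the library labelled Prom1+CD49f+CD45+, was the one nearest to its background. The 4 intervals did not overlap for either gene.

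Itgav (ENSMUSG00000027087.6, chromosome 2, 83724397 to 83806916, plus strand) was at 211 in Prom1+CD49f+CD45- cells, 38.8 in Prom1-CD49f+CD45- cells, 49.0 for the library labelled Prom1+CD49f+CD45+ and 85.4 for presorted cells. Its partner Itgb6 (ENSMUSG00000026971.10, chromosome 2, 60598292 to 60722643, minus strand) was at 53.7 in Prom1+CD49f+CD45- cells, 11.9 in Prom1-CD49f+CD45- cells, 5.72 for the library labelled Prom1+CD49f+CD45+ and 10.0 for presorted cells. Itgb8 (ENSMUSG00000025321.9, chromosome 12, 119158022 to 119238802, minus strand) was at 82.9 in Prom1+CD49f+CD45- cells, 8.48 in Prom1-CD49f+CD45- cells, 4.11 for the library labelled Prom1+CD49f+CD45+ and 12.3 for presorted cells. All 3 were highest in Prom1+CD49f+CD45- cells. Presorted cells came next for Itgav and Itgb8, while for Itgb6 the intervals of Prom1-CD49f+CD45- cells (10.2 to 13.9) and presorted cells (9.11 to 10.99) overlapped. Itga5 (ENSMUSG00000000555.6, chromosome 15, 103344286 to 103366763, minus strand), the fibronectin receptor subunit, was at 100.4 in Prom1+CD49f+CD45- cells, 56.4 in Prom1-CD49f+CD45- cells, 209.9 for the library labelled Prom1+CD49f+CD45+ and 202 for presorted cells. The top intervals of Itga5, 204 to 216 for the library labelled Prom1+CD49f+CD45+ and 198 to 206 for presorted cells, overlapped. Itga9 (ENSMUSG00000039115.8, chromosome 9, 118606690 to 118901003, plus strand) was at 98.8 in Prom1+CD49f+CD45- cells, 128 in Prom1-CD49f+CD45- cells, 702 for the library labelled Prom1+CD49f+CD45+ and 559 for presorted cells, with no overlap between intervals.

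**Figure D1:**
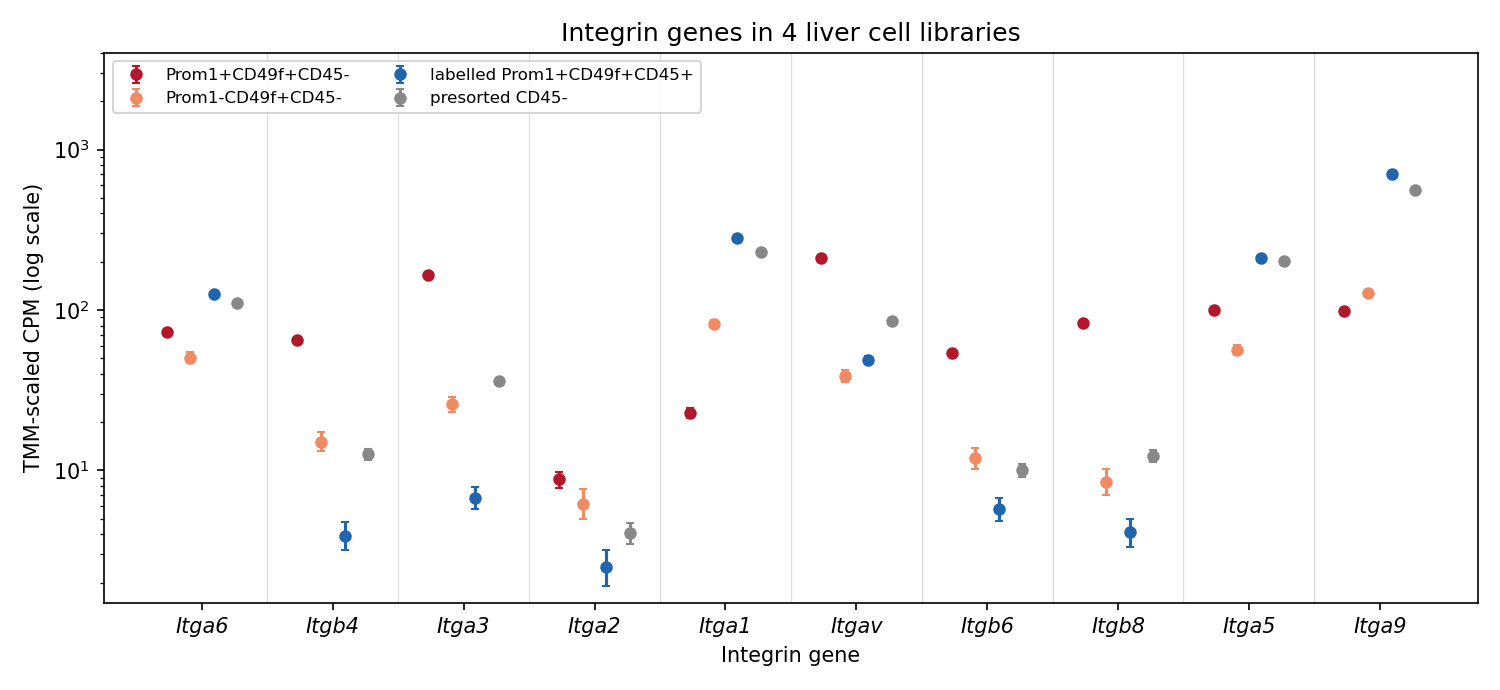
TMM-scaled CPM (log axis) of the 10 integrin genes in the 4 libraries, 1 point per library from left to right in the order of the legend, with exact 95% Poisson intervals for counting error. Itgb4, Itga3, Itgav, Itgb6 and Itgb8 are highest in the Prom1+CD49f+CD45- library, while Itga1, Itga5 and Itga9 have their top values with the library labelled Prom1+CD49f+CD45+, followed by presorted cells.

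To compare the genes with each other, levels were divided by the kilobases of merged annotated exons. On that scale Itga3 led in Prom1+CD49f+CD45- cells with 24.8% of the summed level of the 10 genes, followed by Itga5 with 17.5% and Itgav with 16.8%. In Prom1-CD49f+CD45- cells Itga9 led with 32.2%, ahead of Itga5 with 22.1%, and Itga6 came after them with 10.8%. Itga9 alone made up 53.4% for the library labelled Prom1+CD49f+CD45+ and 46.2% for presorted cells. The laminin-binding subunits Itga3, Itga6 and Itgb4 together held 39.7% in Prom1+CD49f+CD45- cells, 23.8% in Prom1-CD49f+CD45- cells, 9.23% for the library labelled Prom1+CD49f+CD45+ and 12.9% for presorted cells. Itga6 itself varied little as a share, with 6.93% in Prom1+CD49f+CD45- cells, 10.8% in Prom1-CD49f+CD45- cells, 8.21% for the library labelled Prom1+CD49f+CD45+ and 7.77% for presorted cells. The series title names a 3' tag method and the labels' protocols a full-length kit. Without any division by length, the gene in the lead in Prom1+CD49f+CD45- cells was Itgav and not Itga3, and Itga1, not Itga5, came after Itga9 in the other 3 libraries.

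**Figure D2:**
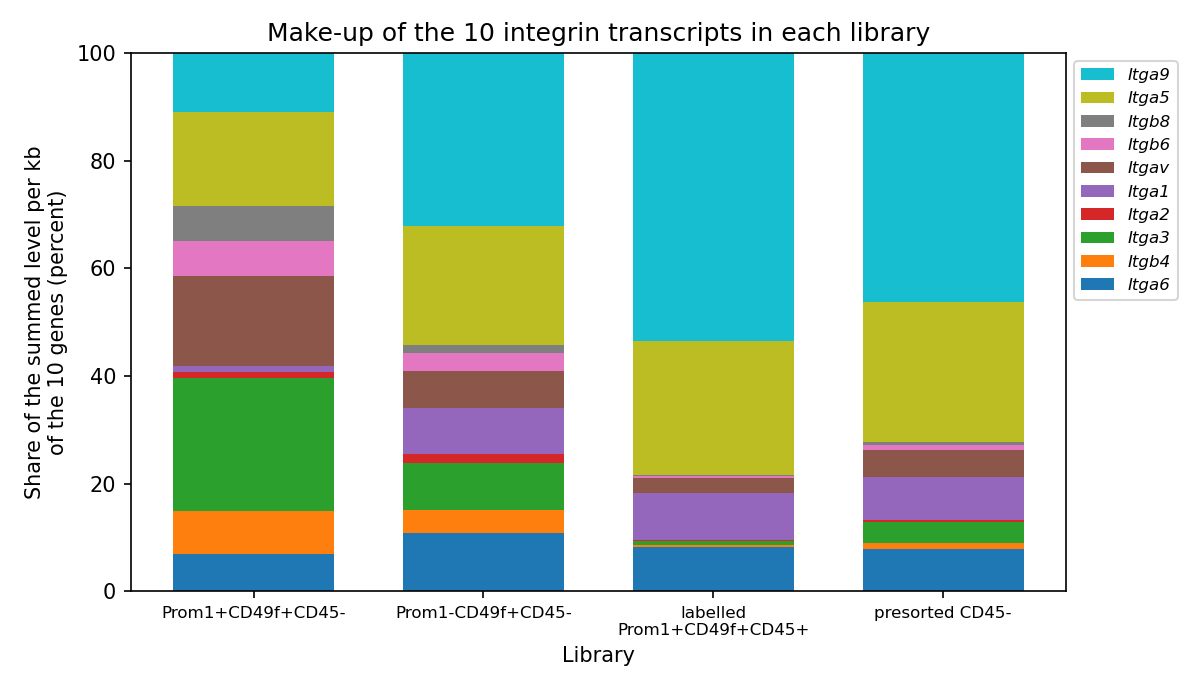
Share (percent) of each of the 10 integrin genes in their summed level per kilobase of exon, 1 bar per library. Itga9 fills 53.4% of the bar of the library labelled Prom1+CD49f+CD45+ and 11.02% of the Prom1+CD49f+CD45- bar, while Itga3 fills 0.694% and 24.8% of the same bars.

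Prom1+CD49f+CD45- cells were set against Prom1-CD49f+CD45- cells to ask which integrins go with surface prominin 1 among CD49f+CD45- cells. Itga3, Itgav, Itgb4, Itgb6 and Itgb8 were higher in the Prom1+ cells, Itga1 was lower, and Itga6 was not called. A call here means that the exact 95% interval of the ratio lay wholly beyond 2-fold. By that rule 5 of 10 genes were called higher and 1 lower, where 15.5% of all 21640 compared genes were called higher and 12.7% lower. The median log2 ratio was 1.47 over the 10 genes and 0.31 over all genes. The largest ratio was that of Itgb8, 9.78 (8.14 to 11.8), and it was followed by Itga3 at 6.39 (5.75 to 7.13) and Itgav at 5.44 (4.99 to 5.94). Itgb6 and Itgb4 were close to each other, at 4.50 (3.84 to 5.29) and 4.32 (3.75 to 4.99). Itga1 was 3.60-fold lower (3.29 to 3.95). The ratio of Itga6 was 1.44 (1.33 to 1.57), that of Itga2 1.41 (1.11 to 1.81), that of Itga5 1.78 (1.65 to 1.93) and that of Itga9 0.773 (0.730 to 0.819), none of them called. Beside these ratios, the cholangiocyte marker sum was 24072 in Prom1+CD49f+CD45- cells and 9172 in Prom1-CD49f+CD45- cells, and the endothelial marker sum was 104 in Prom1+CD49f+CD45- cells and 4761 in Prom1-CD49f+CD45- cells.

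Against presorted CD45- cells, which show what the gates kept of the input, Prom1+CD49f+CD45- cells had the same 5 genes called higher and had Itga1 and Itga9 called lower. This made 5 of 10 higher, with 27.6% of all compared genes called higher, and 2 of 10 lower, with 15.6% of all genes called lower. Median log2 ratios were 1.21 for the 10 and 0.18 for all genes. Itgb8 led at 6.73 (6.14 to 7.39), then came Itgb6 at 5.36 (4.83 to 5.96), Itgb4 at 5.18 (4.72 to 5.69), Itga3 at 4.57 (4.33 to 4.84) and Itgav at 2.47 (2.38 to 2.57). Itga1 was 10.1-fold lower (9.38 to 10.9) and Itga9 5.66-fold lower (5.46 to 5.87). Itga5 was 2.01-fold lower with an interval from 1.93 to 2.09, and Itga6 1.52-fold lower (1.44 to 1.59), and neither was called. Itga2, at a ratio of 2.17 (1.80 to 2.62), was not called either, but was called higher under scaling by library totals and with the authors' deposited normalized values. The comparisons share libraries, so their values are given side by side and are not independent of each other.

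In Prom1-CD49f+CD45- cells against presorted cells no integrin was called higher and 5 of 10 were called lower, where 9.77% and 14.1% of all compared genes were. Itga9 was 4.38-fold lower (4.17 to 4.59), Itga5 3.58-fold lower (3.33 to 3.85) and Itga1 2.80-fold lower (2.64 to 2.98). Itgav, at 2.20-fold lower (2.01 to 2.41), and Itga6, at 2.19-fold lower (2.02 to 2.37), had intervals that just cleared 2-fold. Both calls were lost under scaling by library totals, under DESeq2 size factors, with the authors' deposited normalized values and with the trend of the ratio with exon length removed, which left 3 of 10. Itgb4 and Itgb6, at ratios of 1.20 (1.02 to 1.41) and 1.19 (0.993 to 1.43), were not called. The median log2 ratio was -0.83 for the 10 genes and 0.14 for all genes.

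The library labelled Prom1+CD49f+CD45+ differed from presorted cells in 3 of 10 integrins, all called lower, with 12.1% of all genes called lower, and in 0 of 10 called higher, with 23.8% of all genes called higher. Itga3 was 5.32-fold lower (4.54 to 6.28), Itgb4 3.22-fold lower (2.60 to 4.04) and Itgb8 2.996-fold lower (2.42 to 3.74). The call of Itgb8 was lost under scaling by library totals, at a ratio of 0.423, and with the authors' deposited normalized values, at 0.511. Of the genes not called, Itga6 had a ratio of 1.15 (1.10 to 1.20), Itga1 1.23 (1.19 to 1.26), Itga5 1.04 (1.005 to 1.08) and Itga9 1.26 (1.23 to 1.28). Of these, Itga1 and Itga5 turned below 1 in some of the alternative settings. The median log2 ratio was -0.75 for the 10 genes and 0.10 for all genes.

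Between Prom1+CD49f+CD45- cells and the library labelled Prom1+CD49f+CD45+, 6 of 10 genes were called higher and 3 lower, where 12.5% of all compared genes were called higher and 13.1% lower. Itga3 was 24.3-fold higher (20.9 to 28.6), Itgb8 20.2-fold (16.5 to 24.8), Itgb4 16.7-fold (13.6 to 20.7), Itgb6 9.38-fold (7.90 to 11.2), Itgav 4.30-fold (4.05 to 4.57) and Itga2 3.52-fold (2.67 to 4.70). Itga1 was 12.4-fold lower (11.5 to 13.3) and Itga9 7.10-fold lower (6.85 to 7.37). Itga5 was 2.09-fold lower (2.001 to 2.18), a call lost in 4 of the alternative settings. Itga6, at 1.74-fold lower (1.65 to 1.83), was the 1 gene not called. The median log2 ratio was 1.96 for the 10 genes and -0.18 for all genes. The cholangiocyte marker sum was 24072 in Prom1+CD49f+CD45- cells, against 383 for the library labelled Prom1+CD49f+CD45+. The endothelial marker sum was 104 in Prom1+CD49f+CD45- cells, against 12988 for that library. The part of these markers in the integrin ratios was not tested.

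**Figure D3:**
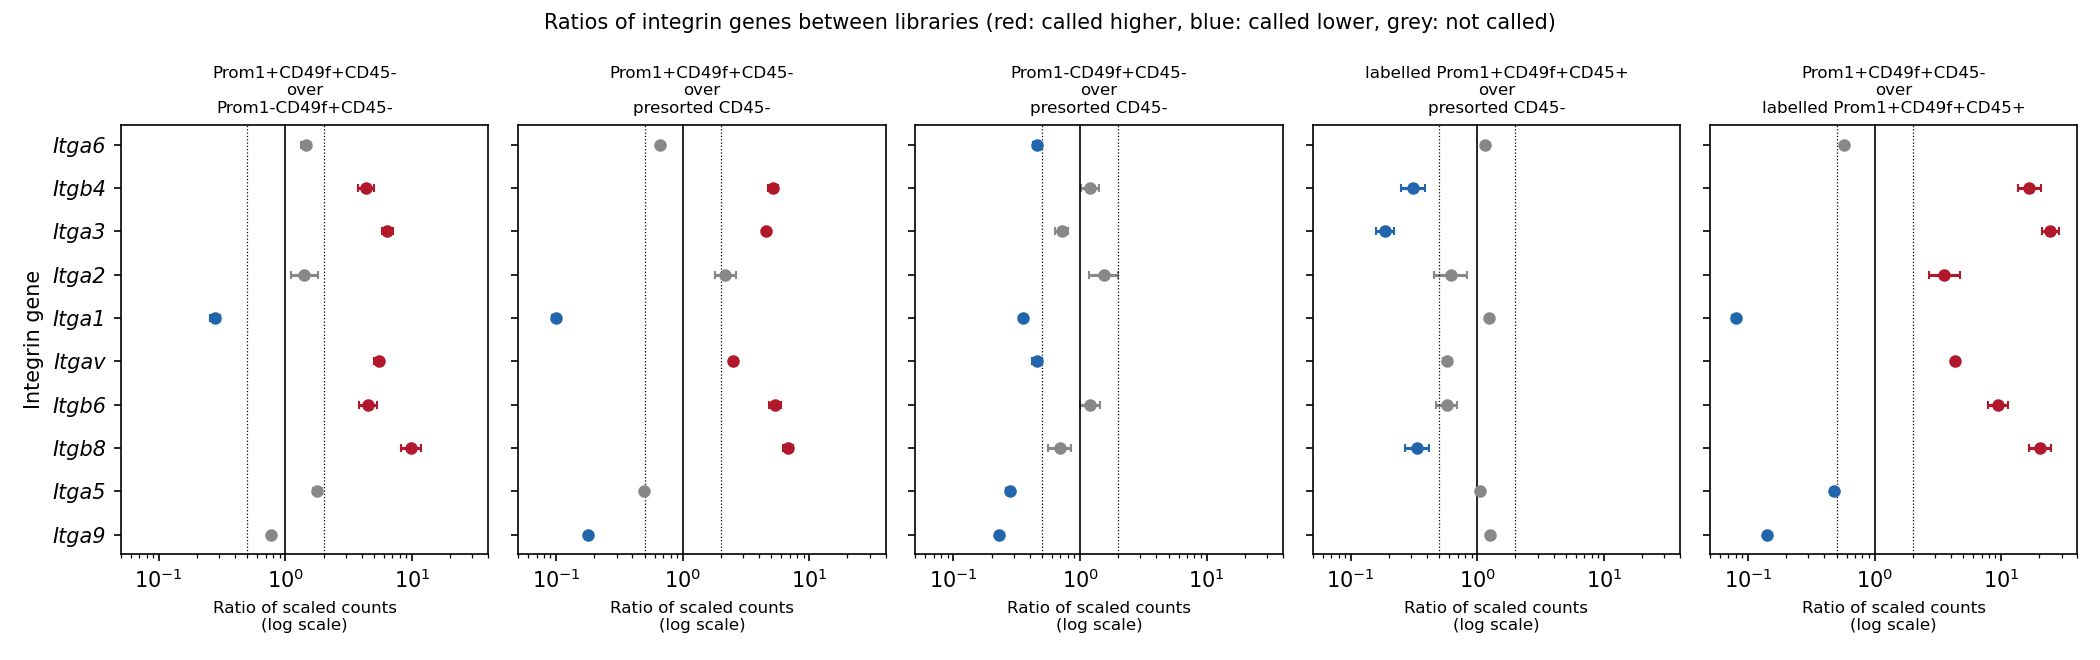
Ratios of TMM-scaled counts (log axis) of the 10 integrin genes in 5 comparisons, with exact 95% intervals for counting error and dotted lines at 2-fold. Itga3, Itgav, Itgb4, Itgb6 and Itgb8 lie right of the upper dotted line in each of the 3 comparisons that have Prom1+CD49f+CD45- cells on top, and Itga6 is between the lines in 4 of the 5 panels.

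Because both subunits of a dimer are counted in 1 library, their ratio needs no scaling between libraries. The pair of Itgb4 and Itga6 had 2237 Itgb4 counts to 2497 Itga6 counts in Prom1+CD49f+CD45- cells, 214 to 715 in Prom1-CD49f+CD45- cells, 97 to 3143 for the library labelled Prom1+CD49f+CD45+ and 560 to 4905 for presorted cells. Per kilobase of exon this gave 1.15 Itgb4 transcripts per Itga6 transcript (1.09 to 1.22) in Prom1+CD49f+CD45- cells, 0.385 (0.329 to 0.449) in Prom1-CD49f+CD45- cells, 0.0397 (0.0321 to 0.0486) for the library labelled Prom1+CD49f+CD45+ and 0.147 (0.134 to 0.160) for presorted cells. The ratio in Prom1+CD49f+CD45- cells depended on the length used. Without division by length it was 0.896 (0.846 to 0.949). With the longest transcript as the length, Itgb4 stood at 10.5 and Itga6 at 16.9 TMM-scaled CPM per kilobase. Whether beta 4 or alpha 6 had more transcript in that library is thus not settled. By each of these lengths beta 4 was nearest to alpha 6 there and well below it in the other libraries. The count ratio was 2.99 times higher (2.54 to 3.52) in Prom1+CD49f+CD45- than in Prom1-CD49f+CD45- cells, 7.85 times higher (7.07 to 8.71) than in presorted cells and 29.0 times higher (23.5 to 35.8) than in the library labelled Prom1+CD49f+CD45+. Beta 1, the other partner of alpha 6, moved little against it. Itgb1 per Itga6 was 15.7 (15.1 to 16.4) in Prom1+CD49f+CD45- cells, 21.8 (20.2 to 23.5) in Prom1-CD49f+CD45- cells, 16.3 (15.7 to 16.9) for the library labelled Prom1+CD49f+CD45+ and 17.5 (17.0 to 18.04) for presorted cells, per kilobase. Beta 1 also pairs with the other alpha subunits described here, so its excess is not an amount of alpha 6 beta 1 dimer.

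The partners of alpha v did not move together. Itgb3, the beta 3 subunit of the vitronectin receptor, had 49 counts against 7228 of Itgav in Prom1+CD49f+CD45- cells, or 0.0123 per Itgav transcript per kilobase (0.00912 to 0.0163). The same ratio was 1.01 (0.876 to 1.17) in Prom1-CD49f+CD45- cells, 2.82 (2.63 to 3.04) for the library labelled Prom1+CD49f+CD45+ and 1.49 (1.43 to 1.57) for presorted cells. Relative to Itgav, Itgb3 in Prom1+CD49f+CD45- cells was 82.0-fold lower (59.9 to 112) than in Prom1-CD49f+CD45- cells. Itgb3 and Itga2b are also platelet markers, and the other 4 genes of that list, all detected in every library, summed to 3.997 in Prom1+CD49f+CD45- cells, 29.2 in Prom1-CD49f+CD45- cells, 4.35 for the library labelled Prom1+CD49f+CD45+ and 6.35 for presorted cells, in TMM-scaled CPM. Itgb3 itself stood at 1.43 in Prom1+CD49f+CD45- cells, 21.5 in Prom1-CD49f+CD45- cells, 76.1 for the library labelled Prom1+CD49f+CD45+ and 70.1 for presorted cells. The part of platelets in the Itgb3 values was not tested. The other vitronectin-binding partner, Itgb5, behaved otherwise. Its ratio to Itgav per kilobase was 2.90 (2.81 to 2.999) in Prom1+CD49f+CD45- cells, 2.58 (2.28 to 2.93) in Prom1-CD49f+CD45- cells, 0.559 (0.483 to 0.645) for the library labelled Prom1+CD49f+CD45+ and 3.75 (3.60 to 3.92) for presorted cells.

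Itgb8 per Itgav was highest in Prom1+CD49f+CD45- cells, at 0.382 (0.365 to 0.399), against 0.212 (0.173 to 0.259) in Prom1-CD49f+CD45- cells, 0.0814 (0.0659 to 0.0997) for the library labelled Prom1+CD49f+CD45+ and 0.140 (0.128 to 0.153) for presorted cells. Itgb6 per Itgav was 0.384 (0.365 to 0.405) in Prom1+CD49f+CD45- cells, against 0.465 (0.389 to 0.554) in Prom1-CD49f+CD45- cells, so that it was not higher in the Prom1+ cells once set against Itgav. The change of that count ratio was 0.827 (0.690 to 0.989). Both sorted CD45- populations were above the library labelled Prom1+CD49f+CD45+, at 0.176 (0.147 to 0.210), and presorted cells, at 0.177 (0.160 to 0.196). In the Prom1+CD49f+CD45- library, Itgb5 had the highest ratio to Itgav of the 4 partners given here, and Itgb3 the lowest. Itgb1, a further partner, was higher still, at 6.47 (6.29 to 6.65) per Itgav per kilobase, but beta 1 also pairs with other alpha subunits.

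**Figure D4:**
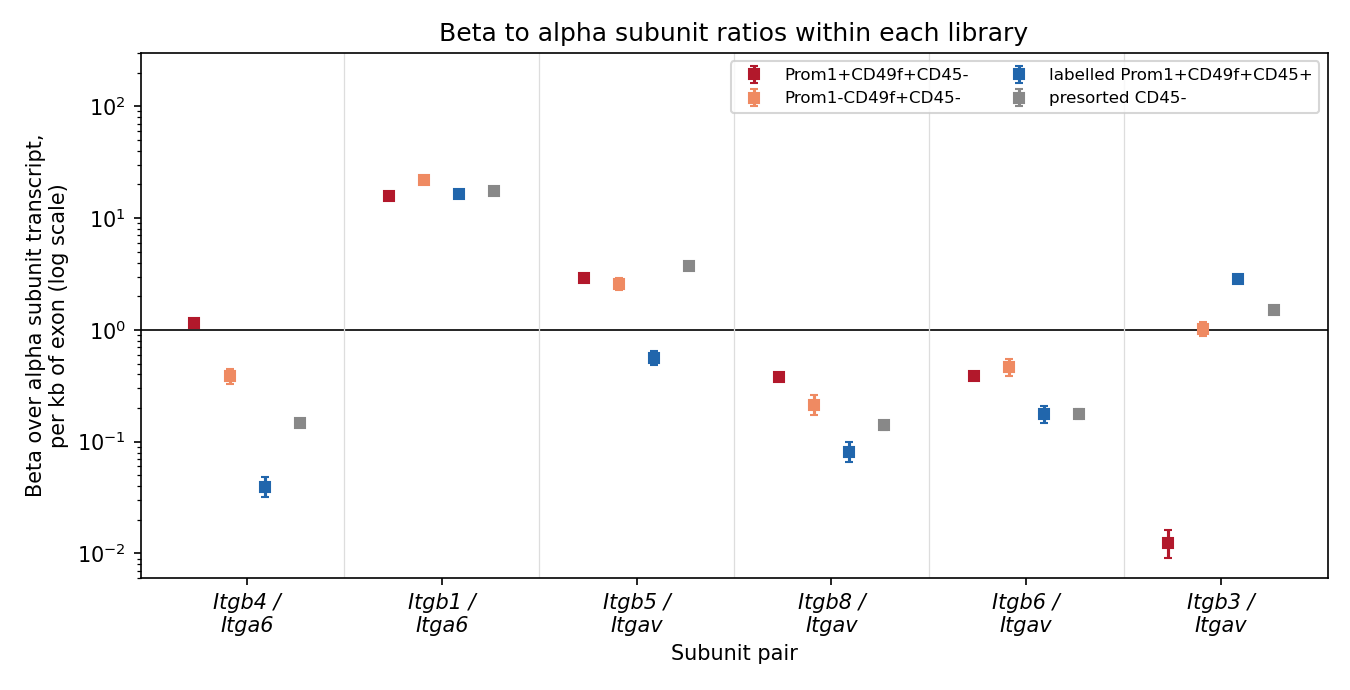
Beta over alpha subunit transcript ratio within each library, per kilobase of exon (log axis), with exact 95% intervals for counting error and 1 point per library in the order of the legend. Itgb4 over Itga6 is 1.15 in the Prom1+CD49f+CD45- library and 0.0397 in the library labelled Prom1+CD49f+CD45+, while Itgb1 over Itga6 stays between 15.7 and 21.8.

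Across the 4 libraries, genes were compared by shape, as the largest difference between their log2 levels after each was centred on its own mean. Among the members the nearest pair was Itga6 and Itga5, which differed by at most 0.40, followed by Itga3 and Itgb4 at 0.41, Itga3 and Itgb8 at 0.50, and Itgb6 and Itgb8 at 0.64. Itga1 and Itgb8 were farthest apart at 4.80. Itga6 and Itgb4, which encode subunits of the same dimer, differed by up to 2.51. Of 9304 genes with at least 100 counts in every library, the 3 nearest to Itga6 were Casd1 at 0.04, Cep170 at 0.05 and Rnf216 at 0.05. With 4 values per gene, such closeness is a description.

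Promoter sequences were found for 8 of the 10 genes in the RefSeq table for GRCm38.p6, and Itga6 and Itgb4 were not matched there. The 250 bases before the start site are shown for Itgav, which had more transcript in Prom1+CD49f+CD45- than in Prom1-CD49f+CD45- cells, and for Itga1, the gene called lower there. Itgb8 had the highest ratio, but its RefSeq start lies 526 bases from the start in the gene annotation, so its window was not used. Sequences run 5' to 3' on the strand of the gene, with CG dinucleotides in capitals.
Itgav promoter, chr2:83724147-83724396, plus strand: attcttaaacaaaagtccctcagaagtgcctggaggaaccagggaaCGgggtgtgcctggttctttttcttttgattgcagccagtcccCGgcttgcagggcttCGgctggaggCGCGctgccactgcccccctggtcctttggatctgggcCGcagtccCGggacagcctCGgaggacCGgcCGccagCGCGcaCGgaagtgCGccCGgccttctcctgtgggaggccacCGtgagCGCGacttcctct
Itga1 promoter, chr13:115101965-115102214, minus strand: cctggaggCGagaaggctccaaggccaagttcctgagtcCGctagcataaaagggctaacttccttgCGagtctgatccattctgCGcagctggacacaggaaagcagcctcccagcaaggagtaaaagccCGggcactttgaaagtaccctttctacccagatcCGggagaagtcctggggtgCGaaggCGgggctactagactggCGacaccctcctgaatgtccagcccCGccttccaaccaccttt
The Itgav window holds 18 CG dinucleotides and is 64.4% G and C, against 10 and 57.6% for the Itga1 window. The AP-1 letters TGANTCA, searched on both strands of the 300 bases around the start, were in 2 of the 10 windows of these genes, the window of Itga9 and the second window of Itga3, and in 7.81% of 32851 promoters. Both of those windows lie away from the start in the gene annotation, by 105002 bases for Itga9 and 7603 bases for Itga3. The TEAD letters GGAATG were in 0 of the 10 windows and in 14.7% of all promoters. No binding data bear on these windows.

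A list of 18 other integrin genes was set beside the 10. It includes Itgbl1, an integrin beta-like gene that does not encode a subunit and that had enough counts to be compared. The members and lists were chosen with earlier results of these data known, so a contrast between them is a description only. Of the 16 with enough counts, 1 was called higher and 5 lower in Prom1+CD49f+CD45- against Prom1-CD49f+CD45- cells, with a median log2 ratio of -0.64 against 1.47 for the 10. As shares these were 6.25% higher and 31.25% lower, where 15.5% and 12.7% of all genes were. Against presorted cells, 0 were higher and 10 lower in Prom1+CD49f+CD45- cells, 0 and 10 in Prom1-CD49f+CD45- cells, and 1 and 6 in the library labelled Prom1+CD49f+CD45+. Between Prom1+CD49f+CD45- cells and the library labelled Prom1+CD49f+CD45+, 2 were higher and 8 lower. The 12.5% higher was at the 12.5% of all genes, and 50% were lower, where 13.1% of all genes were. The share called lower was 62.5% in both CD45- sorted populations and 37.5% in the library labelled Prom1+CD49f+CD45+ over presorted cells, where 15.6%, 14.1% and 12.1% of all genes were called lower. The share called higher was 0% in both CD45- sorted populations and 6.25% in that library, where 27.6%, 9.77% and 23.8% of all genes were called higher. Itgb5 was the 1 gene called higher in the Prom1+ cells, with 202 TMM-scaled CPM in Prom1+CD49f+CD45- cells, 33.1 in Prom1-CD49f+CD45- cells, 9.06 for the library labelled Prom1+CD49f+CD45+ and 106 for presorted cells. Itga8, which encodes the receptor subunit for nephronectin, was at 1.63 in Prom1+CD49f+CD45- cells, 16.5 in Prom1-CD49f+CD45- cells, 274 for the library labelled Prom1+CD49f+CD45+ and 235 for presorted cells. Itgb2, the leukocyte beta 2 subunit, was at 0.438 in Prom1+CD49f+CD45- cells, 4.66 in Prom1-CD49f+CD45- cells, 5.24 for the library labelled Prom1+CD49f+CD45+ and 35.1 for presorted cells. Itgam, Itgal, Itgb2, Itga2b and Itgb3 of this list are also leukocyte or platelet markers. Itgb1 itself was at 518 in Prom1+CD49f+CD45- cells, 497 in Prom1-CD49f+CD45- cells, 932 for the library labelled Prom1+CD49f+CD45+ and 874 for presorted cells.

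Laminin chains, the ligands of alpha 3 and alpha 6 integrins, were also split. Of 11 genes, 4 were called higher and 0 lower in Prom1+CD49f+CD45- against Prom1-CD49f+CD45- cells, with a median log2 ratio of 0.86 against 0.31 for all genes. That is 36.4% called higher, where 15.5% of all genes were. Lamc3, the gamma 3 chain, was at 423 TMM-scaled CPM in Prom1+CD49f+CD45- cells and 31.3 in Prom1-CD49f+CD45- cells, a ratio of 13.5 (12.3 to 14.9). Against presorted cells 5 laminin genes were higher and 2 lower in Prom1+CD49f+CD45- cells, 0 and 7 in Prom1-CD49f+CD45- cells, and 1 and 5 in the library labelled Prom1+CD49f+CD45+. In the first of these, 45.5% of laminin genes were higher, where 27.6% of all genes were, and the 18.2% that were lower stood near the 15.6% of all genes. In Prom1-CD49f+CD45- cells 0% were higher and 63.6% lower, where 9.77% and 14.1% of all genes were. In the library labelled Prom1+CD49f+CD45+ 9.09% were higher and 45.5% lower, where 23.8% and 12.1% of all genes were. Between Prom1+CD49f+CD45- cells and the library labelled Prom1+CD49f+CD45+, 4 were higher and 2 lower, or 36.4% and 18.2%, where 12.5% and 13.1% of all genes were. Lama4, a chain of vessel basement membranes, was 2.53-fold lower there (2.44 to 2.63), with 130.0 TMM-scaled CPM in Prom1+CD49f+CD45- cells and 329 in that library.

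Of 25 other integrin ligand genes, 5 were called higher and 8 lower in Prom1+CD49f+CD45- against Prom1-CD49f+CD45- cells. The 20.0% called higher was near the 15.5% of all genes, and 32.0% were lower, where 12.7% of all genes were. Fn1, fibronectin, was at 1165 TMM-scaled CPM in Prom1+CD49f+CD45- and 178 in Prom1-CD49f+CD45- cells, a ratio of 6.55 (6.29 to 6.82), and Col3a1, a fibrillar collagen, was 46.0-fold lower (34.9 to 61.9), at 1.55 in Prom1+CD49f+CD45- cells and 71.2 in Prom1-CD49f+CD45- cells. Against presorted cells, 6 were higher and 12 lower in Prom1+CD49f+CD45- cells, 3 and 12 in Prom1-CD49f+CD45- cells, and 2 and 11 in the library labelled Prom1+CD49f+CD45+. In Prom1+CD49f+CD45- cells 24.0% were higher, beside 27.6% of all genes, and 48.0% were lower, where 15.6% of all genes were. The share of all genes called higher there depended on the setting, with 19.9% at 50 counts or more and 14.9% with the authors' normalized values. In Prom1-CD49f+CD45- cells the 12% higher was near the 9.77% of all genes, and 48% were lower, where 14.1% were. In the library labelled Prom1+CD49f+CD45+ 8% were higher and 44% lower, where 23.8% and 12.1% of all genes were. That 23.8% was 11.5% at 50 counts or more and 13.9% with the authors' normalized values. Between Prom1+CD49f+CD45- cells and the library labelled Prom1+CD49f+CD45+, 11 were higher and 7 lower, or 44.0% and 28.0%, where 12.5% and 13.1% of all genes were. Spp1, osteopontin, a ligand of alpha v and alpha 9 integrins that is also on the cholangiocyte list, was at 19684 in Prom1+CD49f+CD45- cells and 309 in the library labelled Prom1+CD49f+CD45+, a ratio of 63.8 (62.3 to 65.2). In the same comparison Nid1, the basement membrane linker nidogen, was 25.1-fold lower (23.2 to 27.3), at 19.0 in Prom1+CD49f+CD45- cells and 478 in that library.

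Whether reads were counted by strand was not stated in the sources read here. Exons of Itgav share 634 bases with the opposite-strand gene Gm13684, which had 108 counts in Prom1+CD49f+CD45- cells, 10 in Prom1-CD49f+CD45- cells, 88 for the library labelled Prom1+CD49f+CD45+ and 22 for presorted cells. Exons of Itgb4 share 537 bases with the opposite-strand B230344G16Rik, which had 7 counts in Prom1+CD49f+CD45- cells, 8 in Prom1-CD49f+CD45- cells, 2 for the library labelled Prom1+CD49f+CD45+ and 1 for presorted cells. Itga1 shares 685 exon bases with Gm49395 on its own strand. Against 549 Itgav counts or more and 97 Itgb4 counts or more per library, the counts given to the opposite-strand genes were small.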

How the data were processed

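RNA of sorted liver cells was sequenced in 4 libraries. The authors deposited a gene table of estimated counts, 54.3% to 65.7% of them whole numbers in a library, and one of normalized values. The deposited normalized values were CPM with 1 added, divided by totals of which the gene counts made up 67.1% to 88.4%. The submitters' processing notes name TopHat2, Partek 3 and mm10. The column named only CD45 was taken as presorted CD45- cells, the remaining population of the design text.

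Estimated counts were rounded. Scaling factors (trimmed mean of M values, TMM) came from edgeR 4.0.16 in R 4.3.3 over the 21640 genes with at least 10 counts in 1 library, and levels are TMM-scaled CPM. Of 41128 gene identifiers, 40254 matched a symbol in GENCODE vM21, which also gave exon lengths. Ratios carry exact 95% conditional binomial (Clopper-Pearson) intervals, levels exact 95% Poisson intervals, and changes of pair ratios log-scale Poisson intervals. A count of 0 was set at a floor of 3 counts. Amplified reads are not independent molecules, so intervals cover counting error at best. With 1 library per population no test was made. The ratio calculation was tested on simulated data. Named genes were all 10 members, the sorted genes, the beta subunits of fixed pairs, and from each list up to 2 called genes per direction and comparison with at least 100 counts, of which a part is given. Other scalings, filters, length corrections and call thresholds were tried, with DESeq2 1.42.0 used for size factors alone. The members and lists were chosen with earlier results of these data known. No protein sequences were used here. A list gene that the naming rule would give is not reported here.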

Additional observations from a re-analysis of the deposited data

How the results depend on the processing

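No result changed direction among those called. Of 70 counts of integrins called under the alternatives, 66 were within 1.5 times the main count. The other 4 were the integrins called lower in Prom1-CD49f+CD45- against presorted cells, which numbered 3 and not 5 under scaling by library totals, DESeq2 size factors, the authors' normalized values and removal of the length trend. Of the ratios, 3 crossed 1, none of them called, namely Itga3 in Prom1-CD49f+CD45- over presorted cells (0.685 to 1.02) and, in the library labelled Prom1+CD49f+CD45+ over presorted cells, Itga1 (0.871 to 1.65) and Itga5 (0.983 to 1.40). Among single calls, that of Itgb8 in the library labelled Prom1+CD49f+CD45+ over presorted cells was lost in 2 settings. Over all genes, those called higher numbered 3230 with the authors' values and 3094 with at least 50 counts for Prom1+CD49f+CD45- over presorted cells, against 5963 in the main setting. They numbered 1390 at 50 counts, against 2115, for Prom1-CD49f+CD45- cells, and 3000 and 1788, against 5154, for the library labelled Prom1+CD49f+CD45+. With at least 50 counts 15557 genes are left, so as shares the 3 counts were 19.9%, 8.93% and 11.5%, against 27.6%, 9.77% and 23.8% in the main setting. Library totals moved the median log2 ratio of all genes by 0.23 for Prom1+CD49f+CD45- over Prom1-CD49f+CD45- cells and, against presorted cells, by 0.42, 0.18 and 0.34 for the 3 sorted libraries. The share of calls that were higher was then 66.9%, against 54.8% in the main setting, in the first of these, where DESeq2 size factors gave 46.8% and the authors' values 46.3%, and 52.5%, against 40.9%, in Prom1-CD49f+CD45- over presorted cells, where the authors' values gave 55.3%. With the length trend removed, that share was 52.01% in place of 63.8% for Prom1+CD49f+CD45- and 54.8% in place of 66.3% for the library labelled Prom1+CD49f+CD45+, both over presorted cells. The median of the 10 integrins kept its sign in every scaling tried, but not its size. In Prom1-CD49f+CD45- over presorted cells it was -0.83 in the main setting, -0.28 with the length trend removed and -0.44 with the authors' values. In the library labelled Prom1+CD49f+CD45+ over presorted cells it was -0.75 in the main setting and -0.25 with the authors' values. TMM factors from all gene rows were added after seeing the data and changed no count of integrins by over 1.5 times. Of 40 ranks of the integrins by level, 1 per gene and library, 23 moved without division by length and 21 with the longest transcript as the length. Depth limits Itga2 most, with 62 counts in the library labelled Prom1+CD49f+CD45+. No paired analysis was possible because each population had 1 library, and for the same reason no replicate could be left out.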

Other observations

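Genes that carry the integrin signal inward were called lower more often than higher in Prom1+CD49f+CD45- cells. Of 29 adhesion linker and signalling genes, 5 were called higher and 11 lower against Prom1-CD49f+CD45- cells, and 2 and 12 against presorted cells. The shares lower were 37.9% and 41.4%, where 12.7% and 15.6% of all genes were, while the 17.2% higher in the first comparison was near the 15.5% of all genes. In the second comparison 6.90% were higher, where 27.6% of all genes were. Set against presorted cells, Prom1-CD49f+CD45- cells had 3 higher and 7 lower, the library labelled Prom1+CD49f+CD45+ had 0 and 3, and Prom1+CD49f+CD45- cells 5 and 14 against that library. The 10.3% lower in the library labelled Prom1+CD49f+CD45+ was near the 12.1% of all genes, and 0% were higher, where 23.8% of all genes were. In Prom1-CD49f+CD45- cells the 10.3% higher was near the 9.77% of all genes, and 24.1% were lower, where 14.1% were. Against the library labelled Prom1+CD49f+CD45+, Prom1+CD49f+CD45- cells had 17.2% higher and 48.3% lower, where 12.5% and 13.1% of all genes were. The kindlins, which bind beta subunit tails, differed among themselves. Fermt1, the epithelial kindlin, was at 76.4 TMM-scaled CPM in Prom1+CD49f+CD45- cells and 9.52 in presorted cells, 8.02-fold higher (7.24 to 8.91), and Fermt3, the kindlin of blood cells, at 0.875 in Prom1+CD49f+CD45- cells and 30.6 in presorted cells, 35.0-fold lower (24.4 to 52.1). Of 8 measured hemidesmosome and tetraspanin genes, 0 were called higher and 2 lower in Prom1+CD49f+CD45- cells against Prom1-CD49f+CD45- cells as well as against presorted cells. In Prom1-CD49f+CD45- over presorted cells 2 were higher and 0 lower, in the library labelled Prom1+CD49f+CD45+ over presorted cells 0 and 1, and in Prom1+CD49f+CD45- cells over that library 0 and 1. With 12.5% lower in each of the last 2 comparisons, this list was at the 12.1% and 13.1% of all genes, where 23.8% and 12.5% of all genes were higher. In Prom1+CD49f+CD45- cells the 2 called lower against Prom1-CD49f+CD45- and against presorted cells were 25.0% each time, beside 12.7% and 15.6% of all genes. Of all genes, 15.5% and 27.6% were higher there. The 2 were not the same genes both times, as Cd9 was lower against Prom1-CD49f+CD45- cells but not against presorted cells. In Prom1-CD49f+CD45- over presorted cells the 25.0% higher stood beside 9.77% of all genes, with 14.1% of all genes lower. Cd9, a tetraspanin that associates with integrins, was at 436 TMM-scaled CPM in Prom1+CD49f+CD45- and 1635 in Prom1-CD49f+CD45- cells, 3.75-fold lower (3.67 to 3.83). In presorted cells Cd9 was at 302, and Prom1-CD49f+CD45- cells were 5.41-fold higher (5.30 to 5.53) than these.

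The genes listed around TGF-beta activation were also divided. Not all of them encode proteins that alpha v beta 6 or alpha v beta 8 act on. Of 12 measured genes for TGF-beta ligands, their latency proteins and receptors, 3 were called higher and 6 lower in Prom1+CD49f+CD45- against Prom1-CD49f+CD45- cells, and 5 and 6 against presorted cells. In the first comparison 15.5% of all genes were higher and 12.7% lower, and in the second 27.6% and 15.6%. The counts were 1 and 6 in Prom1-CD49f+CD45- over presorted cells, 1 and 3 in the library labelled Prom1+CD49f+CD45+ over presorted cells, and 4 and 6 in Prom1+CD49f+CD45- cells over that library. The 8.33% higher in Prom1-CD49f+CD45- over presorted cells was near the 9.77% of all genes, and 50% were lower, where 14.1% were. In the library labelled Prom1+CD49f+CD45+ over presorted cells 8.33% were higher and 25% lower, where 23.8% and 12.1% of all genes were. Prom1+CD49f+CD45- cells over that library had 33.3% higher and 50% lower, where 12.5% and 13.1% of all genes were. Tgfb2 was at 57.5 TMM-scaled CPM in Prom1+CD49f+CD45- cells and 7.61 in presorted cells, 7.55-fold higher (6.73 to 8.50), and Tgfb3 at 64.5 in Prom1+CD49f+CD45- cells and 13.6 in presorted cells, 4.74-fold higher (4.33 to 5.20). Lrrc32, which encodes GARP, a protein that tethers latent TGF-beta to the cell surface, was at 3.91 in Prom1+CD49f+CD45- cells and 363 in presorted cells, 92.8-fold lower (78.3 to 111). Nrros, a tether of the same family, was at 2.13 in Prom1+CD49f+CD45- cells and 117 in presorted cells, 54.9-fold lower (43.6 to 70.1).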
